A study of Mus musculus with 15 samples.

Results

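The genes described here were the semaphorins, plexins and neuropilins of mouse intradermal adipocytes, taken as the rows of the raw count table whose symbol named a semaphorin of classes 3 to 7, a plexin A to D, or Nrp1 or Nrp2. This rule gave 31 of 35373 genes, made up of 20 semaphorins, 9 plexins and 2 neuropilins. RNA was sequenced in bulk from the floating, adipocyte-enriched fraction of digested dorsal skin in 15 libraries from separately numbered biological replicates. At postnatal day 23 (P23) there were 4 libraries after 2 days of Wnt activation and 3 controls, and at P26 there were 5 libraries after 5 days of Wnt activation and 3 controls. The activated mice were EngrailedCre/+; Rosa26rtTA/Rosa26rtTA; TetOBcat/+, so that doxycycline switched on β-catenin in descendants of Engrailed-expressing cells. The driver was thus not an adipocyte gene. The controls were +/+; Rosa26rtTA/Rosa26rtTA; TetOBcat/+ and lacked only the Cre, and mice of every group were given doxycycline, at 6 g/kg of diet and at 2 mg/mL of drinking water.

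Semaphorins are extracellular cues first described as axon repellents and later found in blood vessels, immune cells and connective tissue. Class 3 semaphorins are secreted, classes 4, 5 and 6 span the membrane, and Sema7a is held by a lipid anchor. Plexins are their signalling receptors, and neuropilins are co-receptors that most class 3 members need and that also bind vascular endothelial growth factors. In skin the family is best known for guiding nerves and vessels.

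The libraries held 11383421 to 38501753 counts with 13027 to 16663 genes detected. All 14 adipocyte markers were present in every library, with Adipoq at 370 to 5259 CPM (counts scaled to the normalized library size). Axin2, a target of Wnt signalling used to check the activation, stood at 10.01, 27.6, 65.0 and 43.5 CPM at 2 days against 39.8, 8.36 and 5.48 CPM in P23 controls. It stood at 28.2 to 62.8 CPM at 5 days against 34.8, 9.07 and 4.17 CPM in P26 controls. The P23 and P26 controls with the high Axin2 values, replicate 1 of each, were also the only controls with abundant Y-linked transcripts and no Xist. Of the activated libraries only 2-day replicate 1 had Xist and no Y-linked transcripts. Sex was thus unbalanced between activated and control libraries, and partly confounded with activation. Several libraries stood apart. The library labelled 2-day Wnt replicate 1 is listed as a control in the authors' sample sheet, and 31.7% of its counts were mitochondrial, with the hair follicle keratin Krt25 at 1040 CPM. The lowest quality weight, 0.174, was that of P26 control replicate 1, where the keratinocyte keratin Krt14 reached 1054 CPM. In 5-day replicate 5 the 12 stromal markers summed to 83960 CPM, and the other 5-day libraries had 16230 to 36250 CPM. In 2-day replicate 4, 12 members had 0 counts, more than in any other library.

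Promoter sequences are shown for the ligand whose activated libraries all lay below the controls of their age (Sema4b), for the member with the smallest p between control ages (Plxnb2), and for the members whose window held a TCF/LEF motif (Nrp2 and Sema3e), since TCF/LEF factors carry β-catenin to DNA. RefSeq (GRCm38.p6) gave 37 windows of 250 bases before to 50 after the transcript start for 26 of the 31 members. Plxna1, Plxna4, Sema3b, Sema3f and Sema6a had no entry. The sequences run 5′ to 3′ on the strand of the gene, stop before the annotated start, and show the motif letters in capitals.
Sema4b, chr7:80186620-80186840, plus strand: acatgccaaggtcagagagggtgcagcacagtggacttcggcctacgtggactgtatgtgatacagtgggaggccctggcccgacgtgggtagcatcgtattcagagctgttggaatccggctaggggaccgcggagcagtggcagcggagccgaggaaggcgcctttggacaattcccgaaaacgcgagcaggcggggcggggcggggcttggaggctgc
Plxnb2, chr15:89180789-89181038, minus strand: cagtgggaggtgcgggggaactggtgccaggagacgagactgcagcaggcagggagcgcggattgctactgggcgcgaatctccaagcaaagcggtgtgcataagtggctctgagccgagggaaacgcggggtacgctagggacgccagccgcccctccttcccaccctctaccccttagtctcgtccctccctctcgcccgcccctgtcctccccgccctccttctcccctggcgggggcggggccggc
Nrp2, chr1:62703067-62703284, plus strand: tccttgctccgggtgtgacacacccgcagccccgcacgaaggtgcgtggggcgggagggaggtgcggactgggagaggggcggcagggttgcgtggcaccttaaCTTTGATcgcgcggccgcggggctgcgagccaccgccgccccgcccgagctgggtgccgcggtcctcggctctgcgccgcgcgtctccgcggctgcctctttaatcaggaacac
Sema3e, chr5:14025026-14025275, plus strand: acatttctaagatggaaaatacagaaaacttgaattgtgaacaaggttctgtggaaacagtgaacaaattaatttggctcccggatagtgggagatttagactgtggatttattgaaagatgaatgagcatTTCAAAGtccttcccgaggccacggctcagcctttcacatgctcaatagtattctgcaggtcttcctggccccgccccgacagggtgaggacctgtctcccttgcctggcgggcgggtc
CTTTGAT and CTTTGAA were searched on both strands of the whole windows, and these motifs cannot overlap each other on the same strand. CTTTGAT lay on the gene's strand from base 105 of the Nrp2 window. CTTTGAA lay on the opposite strand from base 132 of the Sema3e window, where it reads TTCAAAG. These were 2 of the 37 member windows (5.41%), against 8.65% of all 32851 windows in the table. The Sema4b and Plxnb2 windows held neither motif. Member windows were rich in G and C, with a median of 63.7% against 52.7% in all windows, and held a median of 15 CpG dinucleotides against 7. A match or its absence describes these letters only.

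Every member had counts in at least 2 libraries. Of the 31, 30 passed the low-count filter of the tests. The member that did not pass was Sema4f, which had 1.23 CPM in 5-day replicate 4 and 3.35 CPM in P26 control replicate 1, and 0 counts in the other 13 libraries. Plxnb3 had 0 counts in 11 libraries, with 2.47 CPM in 2-day replicate 3, 4.91 and 1.36 CPM in 5-day replicates 2 and 3, and 2.11 CPM in P26 control replicate 3. Taking 3 counts as the level that 0 counts allows, the limit was 0.0766 to 0.254 CPM, by library. It covers counting error only. Plxnb3 and Sema4f had either 0 or at least 29 counts in a library, so a 0 in these libraries need not mark absence from the cells.

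Per kilobase of exon, the receptors Plxnd1 and Plxnb2 had the highest means over the 15 libraries, 15.4 and 10.5 CPM per kb. They were followed by the secreted ligand Sema3b at 9.01, the co-receptor Nrp1 at 7.14, the ligand Sema3c at 6.99 and the receptor Plxna1 at 6.60 CPM per kb. Sema7a, Sema4c, Sema4b and Sema4a lay between 6.54 and 4.99 CPM per kb, and neighbours in this order lay closer together than the spread between libraries. Nrp2 averaged 3.72 CPM per kb. At the low end were Plxnc1, Plxna4, Sema5b, Plxnb3 and Sema4f, at 0.211 to 0.0577 CPM per kb. The order differed between groups. Plxnb2 averaged 3.98 CPM per kb in P23 controls, below Sema4b at 8.81 and Plxna1 at 7.85, and at 5 days Sema3b and Plxnd1 both averaged 15.9 CPM per kb. The low members had many libraries at 0, and their ranks rest on a few libraries each.

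**Figure D1:**
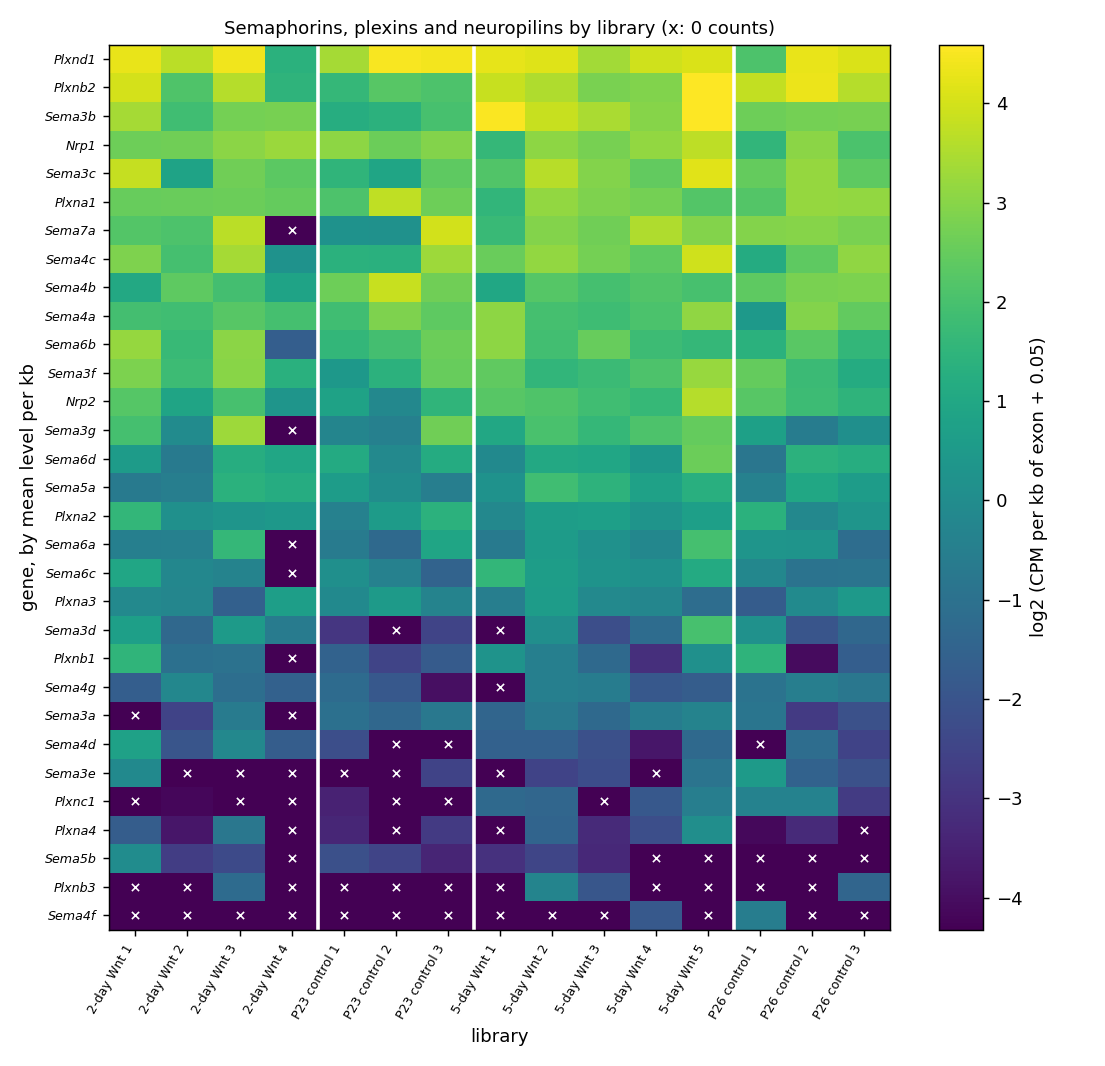
Level of each of the 31 genes (rows, from highest to lowest mean per kb) in each library (columns, grouped as 2-day Wnt, P23 control, 5-day Wnt and P26 control), as log2 of CPM per kb of exon plus 0.05. Crosses mark 0 counts, and 2-day replicate 4 has 12 of them.

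Among secreted ligands, Sema3b had the most regular difference between activated and control libraries. Sema3b (ENSMUSG00000057969, GRCm38 chromosome 9, 107597674 to 107609229, minus strand) is known in human tissue as a candidate tumour suppressor. It stood at 49.8, 17.1, 31.7 and 32.5 CPM at 2 days, against 10.8, 12.3 and 18.96 CPM in P23 controls. Of the 2-day libraries only replicate 2 lay within the control range. At 5 days it stood at 109.6, 68.0, 52.0, 37.4 and 113 CPM, against 29.05, 31.6 and 31.975 CPM in P26 controls, and these groups did not overlap. In the quasi-likelihood fit of edgeR over all genes, its log2 fold change was 1.22 ± 0.43 (SE) at 2 days (adjusted p = 0.919) and 1.30 ± 0.42 at 5 days (adjusted p = 0.658). Averaged over both ages it was 1.26 ± 0.30 (edgeR adjusted p = 0.281), which did not pass the threshold of 0.05 on the adjusted p. DESeq2 called this averaged difference, with a log2 fold change of 1.28 (adjusted p = 0.0077). Weighted limma-voom, which gives noisy libraries less weight, did not call it, at 1.01 (adjusted p = 0.169). The highest 5-day values lay in replicates 1 and 5, with quality weights of 0.456 and 0.489. The other 5-day libraries had weights of 1.65 to 3.27. An exact two-sided permutation within each age gave p = 0.00255 for a mean log2 difference of 1.15. That permutation was added after the data were seen and run on 12 members already chosen for small p or always given, with no adjustment, so it is no independent support. Without 2-day replicate 1, P26 control replicate 1 and 5-day replicate 5 the averaged edgeR value was 1.01 (adjusted p = 0.353), and with the Y-linked level as a covariate it was 1.504. With 2-day replicate 1 counted as a control, as the sample sheet has it, Sema3b was 0.24 at 2 days and 0.77 averaged.

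Summed stromal markers, which include fibroblast genes, were also higher in the activated groups on the median, though the sums overlapped at both ages. All 12 were detected in every library, and they summed to 10130 to 29250 CPM at 2 days against 9738 to 10920 CPM in P23 controls. At 5 days they summed to 16230 to 83960 CPM, against 5651 to 26370 CPM in P26 controls. The medians were 18380 against 10160 CPM at 2 days and 26330 against 16580 CPM at 5 days. Single markers differed from the sum. Pdgfra stood at 21.8, 64.0, 13.6, 22.3 and 179.5 CPM at 5 days, against 54.8, 42.8 and 32.2 CPM in P26 controls. Col1a1, a large part of the sum, ran from 7283 to 36520 CPM at 5 days against 1671 to 8860 CPM in P26 controls. The part of stromal markers in the Sema3b values was not tested. In bulk RNA, a change in the share of cells of a type and a change of RNA per cell cannot be told apart.

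Sema4b, a transmembrane ligand, had the most regular difference in the other direction. Sema4b (ENSMUSG00000030539, chromosome 7, 80186841 to 80226527, plus strand) stood at 11.6, 28.98, 21.01 and 9.79 CPM at 2 days, against 34.2, 79.9 and 35.1 CPM in P23 controls. At 5 days it stood at 11.005, 26.6, 21.9, 25.01 and 22.01 CPM, against 29.05, 38.7 and 40.2 CPM in P26 controls. All activated libraries lay below all controls of their age. The edgeR log2 fold change was -1.48 ± 0.44 (SE) at 2 days (adjusted p = 0.919) and -0.75 ± 0.42 at 5 days (adjusted p = 0.715). Averaged over both ages it was -1.12 ± 0.30 (edgeR adjusted p = 0.355), again not called by edgeR. DESeq2 called the averaged difference at -1.11 (adjusted p = 0.0343), and the same unadjusted exact permutation, with the same limits, gave p = 0.00255 for -1.13. Weighted limma-voom did not call it, at -0.96 (adjusted p = 0.145). Leaving out P23 control replicate 2, the library with 79.9 CPM, brought the edgeR value to -0.96 at 2 days and -0.86 averaged. With the Y-linked level as a covariate the 5-day value was -0.62. With the 3 libraries that stood apart left out the averaged value was -1.099 (edgeR adjusted p = 0.339), and with the sample sheet's group it was -0.88. Adipocyte markers were also lower in activated libraries on the median, with sums of 32250 to 96180 CPM (median 77800 CPM) at 2 days against 75220 to 113900 CPM (median 103400 CPM) in P23 controls. They were 16040 to 74740 CPM (median 57630 CPM) at 5 days, against 14920 to 94910 CPM (median 69110 CPM) in P26 controls. Sema4b and the adipocyte sum were both highest in P23 control replicate 2, at 79.9 and 113900 CPM. Other libraries differed. In 2-day replicate 4, with Sema4b at 9.79 CPM, the sum was 83140 CPM, above that of P23 control replicate 3 (75220 CPM). P26 control replicate 1 had the lowest sum, 14920 CPM, with Sema4b at 29.05 CPM. The part of adipocytes in the Sema4b values was not tested.

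**Figure D2:**
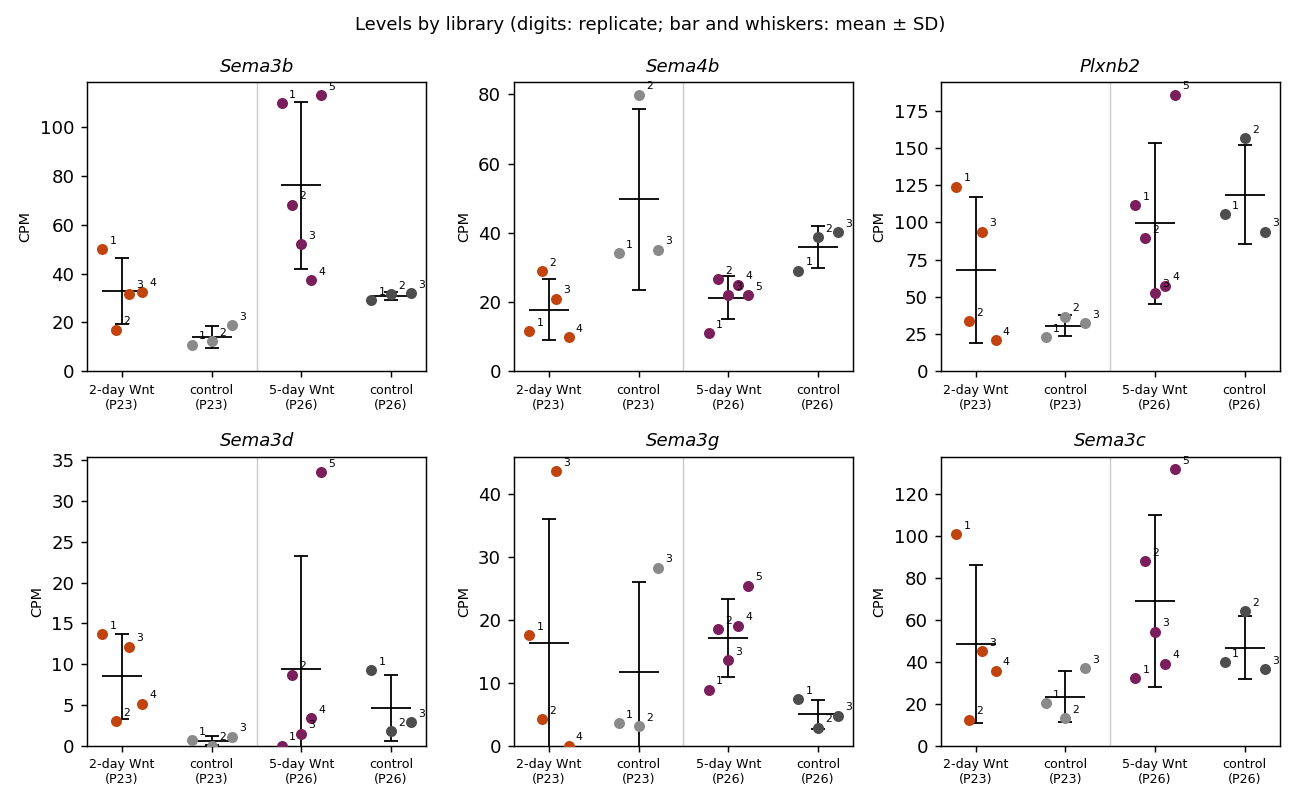
CPM of 6 genes by library in the 4 groups. Points are libraries with their replicate number, and bars with whiskers are the mean ± SD (n = 4, 3, 5 and 3). Sema4b lies lower in every activated library than in the controls of its age, and Sema3b lies higher at 5 days than in all P26 controls.

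No member passed the adjusted threshold in edgeR in any of the comparisons, and neither did any other gene, so the background share called was 0% at 2 days, at 5 days, averaged over both ages, for the difference between the ages and between the controls. DESeq2, over the average of both ages, called 1.94% of genes, and its calls among the members were Sema3b and Sema4b, 2 of 30. At an unadjusted edgeR p below 0.05, 4 of 30 members were found at 2 days, 3 higher (Sema3b, Sema3d and Plxnb2) and 1 lower (Sema4b), against 5.17% of all 16935 genes. At 5 days 2 were found, both higher (Sema3b and Sema5b), against 7.06% of genes. Sema5b was near the floor, at 0.508, 0.946, 0.376, 0 and 0 CPM at 5 days and at 0 in all P26 controls. Averaged over both ages 4 were found, 3 higher (Sema3b, Sema3d and Sema5b) and 1 lower (Sema4b), against 7.85% of genes. Libraries of the activated group and the controls did not overlap for 2 members higher at 2 days, Sema3d and Sema4d (background 2.24%), and for 1 lower, Sema4b (background 2.91%). At 5 days they did not overlap for 3 higher members, Sema3b, Sema3g and Sema6c (background 3.39%), and for 1 lower, again Sema4b (background 2.25%). These counts describe a short list and were not compared with other lists.

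Fitted values were positive for 14 of 19 tested semaphorins at 2 days and 15 of 19 at 5 days, against 49.38% and 51.55% of all tested genes. Low members are counted too, and some of their signs rest on 1 library, as for Sema3e and Plxnb3 at 2 days. The signs also depended on the fit. With weighted limma-voom, Sema3g, Sema5b, Sema6a, Sema6b and Sema6c turned negative at 2 days (-1.235, -0.75, -1.655, -0.51 and -1.62). No semaphorin turned positive there, and 40.94% of all genes were positive. At 5 days Sema4a, Sema4d and Sema6d turned negative (-0.59, -0.56 and -0.34) and Sema7a turned positive (0.035). At 2 days 21 of the 30 tested members had a positive log2 fold change and the median was 0.41, against 0.00 over all tested genes. At 5 days 20 were positive with a median of 0.46, against 0.03 over all genes. Class 3 accounted for 6 of its 7 members at each age, with medians of 1.05 at 2 days and 0.99 at 5 days. Of the 9 plexins, 5 were positive at 2 days and 3 at 5 days, with medians of 0.04 and -0.19.

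Summed per kilobase of exon, class 3 transcripts reached 10.1 to 38.0 CPM per kb at 2 days (median 23.7), against 7.68 to 21.9 CPM per kb in P23 controls (median 8.004). At 5 days the sums were 22.7 to 62.1 CPM per kb (median 35.0). In P26 controls they were 15.8 to 21.8 CPM per kb (median 20.1), below every 5-day library. Of the class 3 members only Sema3b and Sema3g separated these groups singly. Sema3b averaged 15.9 CPM per kb at 5 days against 6.46 in P26 controls, the largest part of the 5-day sums on average. The separation of the sums is thus no trait of every member, and no background share was taken for it. Over all 15 libraries Sema3b and Sema3c weigh most in these sums, and in P23 controls Sema3c, Sema3f and Sema3b averaged 3.28, 3.20 and 2.94 CPM per kb. Class 4 sums overlapped, with 7.27 to 20.3 CPM per kb at 2 days against 12.7 to 24.1 CPM per kb in P23 controls, and 14.1 to 28.5 CPM per kb at 5 days against 9.81 to 21.8 CPM per kb in P26 controls. Plexin and neuropilin sums overlapped as well. The plexins summed to 13.7 to 48.4 CPM per kb at 2 days against 19.6 to 43.5 CPM per kb in P23 controls, and to 27.3 to 50.3 CPM per kb at 5 days against 28.7 to 51.4 CPM per kb in P26 controls. The neuropilins summed to 8.10 to 12.1 CPM per kb at 2 days against 6.81 to 10.3 CPM per kb in P23 controls, and to 7.87 to 25.1 CPM per kb at 5 days against 6.90 to 11.6 CPM per kb in P26 controls.

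**Figure D3:**
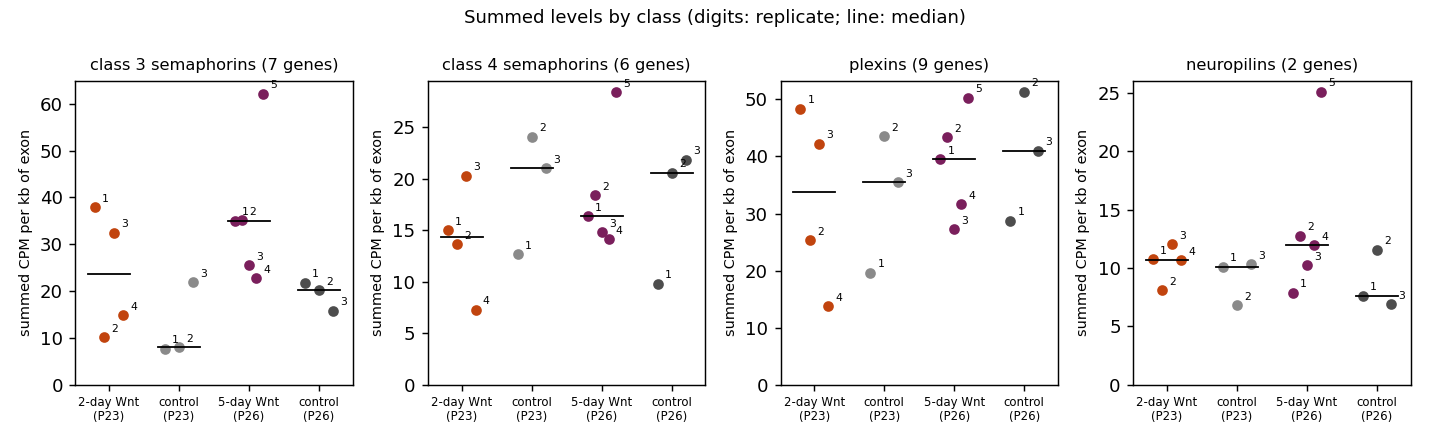
Sum of CPM per kb of exon over the members of 4 classes, by library in the 4 groups. Points are libraries with their replicate number and lines are medians. Class 3 sums are 22.7 to 62.1 CPM per kb at 5 days and 15.8 to 21.8 CPM per kb in P26 controls, and the other classes overlap. Sema3b, itself without overlap at 5 days, is the largest part of the 5-day class 3 sums on average.

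The remaining class 3 ligands varied more between libraries. Sema3d, best known for guiding axons and vessels in the embryo, stood at 13.7, 3.03, 12.1 and 5.16 CPM at 2 days, against 0.714, 0 and 1.10 CPM in P23 controls. At 5 days it stood at 0, 8.69, 1.46, 3.35 and 33.5 CPM, against 9.29, 1.78 and 2.91 CPM in P26 controls. The groups separated at 2 days and overlapped widely at 5 days. Its edgeR log2 fold change was 3.80 ± 1.68 (SE) at 2 days (adjusted p = 0.919) and 2.41 ± 1.10 averaged over both ages (adjusted p = 0.614). With the sample sheet's group these values were 0.81 and 0.91. The effect at 5 days minus that at 2 days was -2.79 ± 2.03 (edgeR adjusted p = 1).

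Sema3c, a ligand with roles in heart and vessel development, stood at 101, 12.4, 45.0 and 35.7 CPM at 2 days, against 20.2, 13.1 and 36.9 CPM in P23 controls. It stood at 32.2, 87.8, 54.4, 39.0 and 132 CPM at 5 days, against 39.7, 63.9 and 36.5 CPM in P26 controls. The highest values belonged to 2-day replicate 1 and 5-day replicate 5. Sema3c log2 fold changes were 1.05 ± 0.60 at 2 days, 0.56 ± 0.57 at 5 days and 0.81 ± 0.41 averaged (edgeR adjusted p = 0.936, 0.953 and 0.671). Without 2-day replicate 1 the 2-day value was 0.39. Sema3g, a vessel-associated ligand, held 17.5, 4.20, 43.5 and 0 CPM at 2 days against 3.54, 3.11 and 28.3 CPM in P23 controls. At 5 days it held 8.89, 18.5, 13.6, 19.03 and 25.4 CPM against 7.43, 2.84 and 4.75 CPM in P26 controls, with every 5-day library above the controls. The 5-day log2 fold change was 1.77 ± 1.21 (edgeR adjusted p = 0.822).

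Sema3a, the founding axon repellent and a Nrp1 ligand, was low throughout. It stood at 0, 1.72, 8.33 and 0 CPM at 2 days against 6.05, 4.78 and 7.45 CPM in P23 controls, and at 4.49, 7.74, 4.98, 8.48 and 10.2 CPM at 5 days against 7.02, 1.29 and 2.51 CPM in P26 controls. Groups overlapped at both ages. For Sema3a the log2 fold change was -1.27 ± 1.42 at 2 days and 0.99 ± 1.41 at 5 days (edgeR adjusted p = 1 and 0.990), and the averaged value was -0.14 ± 0.98 (adjusted p = 1). The effect at 5 days minus that at 2 days was 2.27 ± 2.01 (edgeR adjusted p = 1). Sema3e, which binds Plxnd1 without a neuropilin, was found in 8 of the 15 libraries. It had 8.29, 0, 0 and 0 CPM at 2 days against 0, 0 and 1.16 CPM in P23 controls, and 0, 1.13, 1.55, 0 and 4.48 CPM at 5 days against 12.9, 2.77 and 1.70 CPM in P26 controls. The 5-day log2 fold change of -2.01 ± 2.30 (edgeR adjusted p = 0.967) was -0.65 without P26 control replicate 1. Sema3f, a Nrp2 ligand, ranged over 12.7 to 41.3 CPM at 2 days against 6.67 to 29.8 CPM in P23 controls, and over 14.9 to 48.6 CPM at 5 days against 11.48 to 28.7 CPM in P26 controls.

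**Figure D4:**
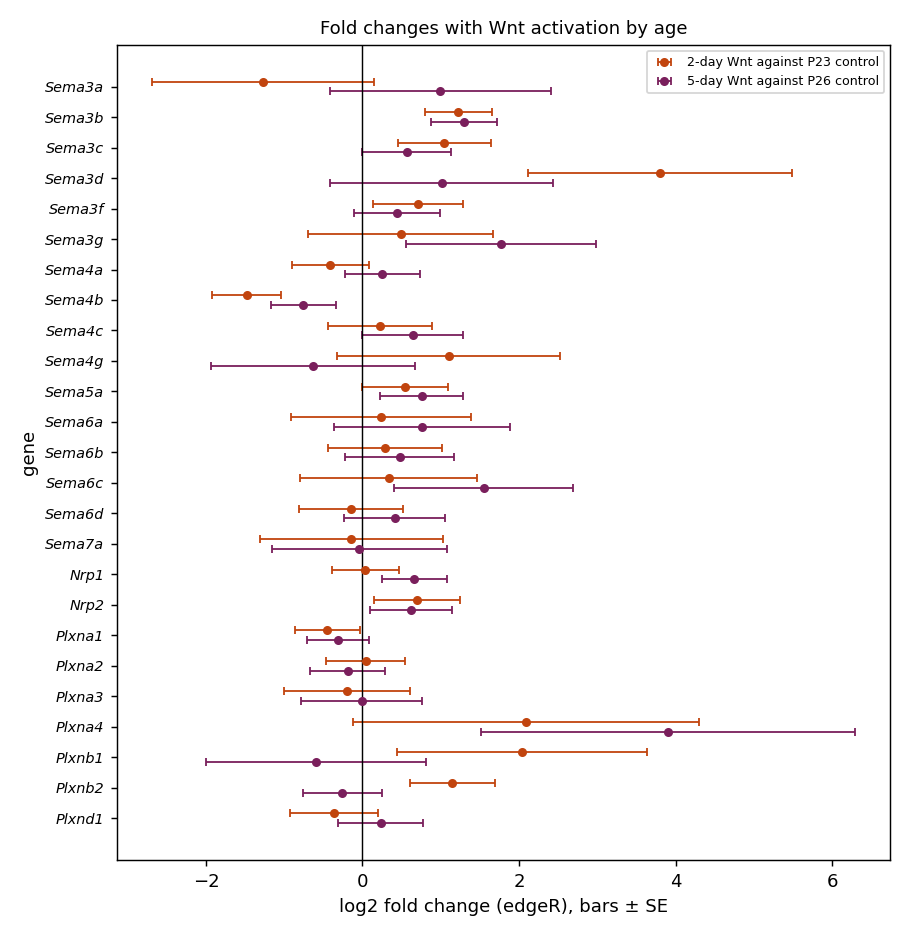
edgeR log2 fold change of 25 members with bars of ± SE, at 2 days against P23 controls and at 5 days against P26 controls. The 6 members left out had a mean below 1 CPM or a group whose median was 0 CPM. Sema3b and Nrp2 lie above 0 and Sema4b below 0 at both ages by more than 1 SE, and none of the values passed the adjusted threshold.

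Among membrane-bound ligands other than Sema4b, Sema4a, which acts on immune cells, stood at 20.2, 19.4, 26.1 and 21.01 CPM at 2 days against 19.2, 39.1 and 28.1 CPM in P23 controls. It stood at 45.0, 20.9, 19.01, 22.2 and 46.8 CPM at 5 days against 7.34, 40.9 and 29.2 CPM in P26 controls. The averaged log2 fold change was -0.08 ± 0.34 (edgeR adjusted p = 1), and the groups overlapped. Sema4d, a ligand of Plxnb1, stood at 12.9, 1.58, 6.43 and 2.01 CPM at 2 days against 1.33, 0 and 0 CPM in P23 controls, and at 0.179 to 2.80 CPM at 5 days against 0 to 3.07 CPM in P26 controls. Sema4c, a ligand of Plxnb2, ranged over 5.06 to 48.1 CPM at 2 days against 11.3 to 44.2 CPM in P23 controls, and over 23.4 to 70.1 CPM at 5 days against 10.1 to 39.8 CPM in P26 controls. Sema4g stayed at or below 7.14 CPM in every library.

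Sema5a, Sema6a, Sema6b, Sema6d and Sema7a overlapped between activated and control libraries at both ages. Sema5a ranged over 11.1 to 47.6 CPM at 2 days against 12.3 to 27.5 CPM in P23 controls, and over 20.7 to 67.5 CPM at 5 days against 13.2 to 35.7 CPM in P26 controls. Sema6c separated at 5 days only, at 6.23 to 17.6 CPM against 2.80 to 4.94 CPM in P26 controls. The 2-day range of Sema6c, 0 to 11.1 CPM, covered that of P23 controls, 1.81 to 6.12 CPM. Sema7a, which signals through integrins and Plxnc1, ranged over 0 to 41.9 CPM at 2 days against 3.55 to 51.5 CPM in P23 controls. Sema5b was at 0 in 6 libraries and reached 6.76 CPM in 2-day replicate 1, with at most 1.26 CPM elsewhere.

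Of the co-receptors, Nrp1 (which pairs with class 3 ligands and VEGF receptors) varied widely within groups. It stood at 59.98, 61.6, 79.2 and 92.7 CPM at 2 days against 82.2, 58.4 and 73.8 CPM in P23 controls, and at 29.6, 82.7, 65.3, 86.7 and 127 CPM at 5 days against 27.8, 80.3 and 40.7 CPM in P26 controls. For Nrp1 the log2 fold change was 0.04 ± 0.42 at 2 days, 0.66 ± 0.41 at 5 days and 0.35 ± 0.30 averaged (edgeR adjusted p = 1, 0.777 and 0.919). The 5-day Nrp1 value was 0.38 without P26 control replicate 1, 1.22 without P26 control replicate 2 and 0.13 without the 3 libraries that stood apart. Nrp2 stood at 54.8, 21.3, 46.8 and 14.1 CPM at 2 days against 20.3, 9.95 and 33.2 CPM in P23 controls. At 5 days Nrp2, whose promoter window held CTTTGAT, stood at 57.3, 51.0, 42.3, 36.8 and 143 CPM against 56.6, 40.0 and 32.4 CPM in P26 controls. For Nrp2 it was 0.69 ± 0.55 at 2 days, 0.62 ± 0.52 at 5 days and 0.66 ± 0.38 averaged (edgeR adjusted p = 1, 0.914 and 0.719). Without 5-day replicate 5 the Nrp2 value at 5 days was 0.13. At 2 days it was 0.35 without P23 control replicate 2 and 1.13 without P23 control replicate 3, and -0.11 with the sample sheet's group.

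Plxnd1, the receptor of vessels that binds Sema3e, had the highest mean per kb over the 15 libraries, although in P26 controls Plxnb2 averaged 15.4 and Plxnd1 13.5 CPM per kb. It stood at 145, 93.5, 155 and 18.6 CPM at 2 days against 76.0, 165 and 157 CPM in P23 controls, and at 139.85, 131, 73.8, 111 and 123 CPM at 5 days against 30.9, 142 and 123 CPM in P26 controls. The log2 fold change was -0.36 ± 0.56 at 2 days, 0.23 ± 0.54 at 5 days and -0.07 ± 0.39 averaged (edgeR adjusted p = 1, 0.999 and 1). The lowest Plxnd1 value, in 2-day replicate 4, stood beside the lowest sum of the 12 endothelial and mural markers, 153.6 CPM, against 331.4 to 1851 CPM in the other 14 libraries. That library also had the lowest Plxnb2, Sema4b, Sema4c and Sema6b values. The next lowest Plxnd1 value, 30.9 CPM in P26 control replicate 1, stood beside a sum of 585.3 CPM. The part of endothelial and mural cells in the Plxnd1 values was not tested.

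Plxna1, a class A receptor that works with neuropilins, stood at 51.4, 52.6, 53.4 and 50.6 CPM at 2 days against 38.2, 119.8 and 55.1 CPM in P23 controls. It stood at 26.1, 79.7, 65.5, 59.2 and 41.6 CPM at 5 days against 41.1, 82.2 and 80.2 CPM in P26 controls. The averaged log2 fold change was -0.38 ± 0.29 (edgeR adjusted p = 0.863), with -0.45 ± 0.41 at 2 days and -0.32 ± 0.39 at 5 days (adjusted p = 1 and 0.978). Antisense genes share 970 bases of exon with Plxna1, 334 with Sema4c, 257 with Plxnb1 and 110 with Plxna4. The use of strand in counting is not given, so the values of these members are uncertain. Plxna4, another class A receptor, had 3.70, 0.316, 7.42 and 0 CPM at 2 days against 0.680, 0 and 1.32 CPM in P23 controls, and 0, 4.46, 0.751, 2.38 and 14.2 CPM at 5 days against 0.0906, 0.759 and 0 CPM in P26 controls. The log2 fold change was 3.91 ± 2.39 at 5 days and 3.00 ± 1.62 averaged (edgeR adjusted p = 0.767 and 0.696), and it was 2.75 at 5 days without replicate 5. Plxna2 and Plxna3 overlapped between groups at both ages.

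Plxnb2, a partner of class 4 semaphorins, had the smallest p of the members between the control ages. Plxnb2 (ENSMUSG00000036606, chromosome 15, 89155549 to 89180788, minus strand) stood at 106, 156.5 and 93.6 CPM in P26 controls, against 23.1, 36.7 and 32.4 CPM in P23 controls. The groups did not overlap, and the edgeR log2 difference was 1.95 ± 0.58 (SE, adjusted p = 0.551). Weighted limma-voom, which gives noisy libraries less weight, called it at 2.18 (adjusted p = 0.043), with 0.815% of all genes called by that tool. In activated libraries Plxnb2 stood at 124, 33.7, 93.8 and 21.1 CPM at 2 days and at 112, 89.2, 52.9, 57.5 and 186 CPM at 5 days. The log2 fold change was 1.15 ± 0.54 at 2 days and -0.26 ± 0.50 at 5 days (edgeR adjusted p = 0.919 and 0.999). The effect at 5 days minus that at 2 days was -1.40 ± 0.73 (edgeR adjusted p = 0.909). The 2-day value was 0.68 without 2-day replicate 1 and -0.12 with that library as a control, as in the sample sheet, where the difference between control ages was 1.13. The comparison of control ages and the activation comparisons share their controls.

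Summed over 12 genes, leukocyte markers were higher in P26 controls too, at 517.2 to 2479 CPM against 329.1 to 384.9 CPM in P23 controls. Of the 12 markers 4, Ptprc and Adgre1 among them, were at 0 in some library. Ptprc and Adgre1 did not follow the sum in P26 control replicate 1. Both were at 0 CPM there, below all P23 controls, and Plxnb2 stood at 106 CPM in that library. In P26 control replicates 2 and 3 both markers lay above all P23 controls. Keratinocyte markers summed to 996.2 to 8478 CPM in P26 controls against 57.9 to 430.5 CPM in P23 controls. Their part in the Plxnb2 values was not tested. Without P26 control replicate 1, 5-day replicate 5 and 2-day replicate 1 the Plxnb2 difference between control ages was 2.03 (edgeR adjusted p = 0.18).

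Between the control ages, 4 of 30 members had an unadjusted edgeR p below 0.05, 3 higher at P26 (Plxnb2, Sema3b and Plxnc1) and 1 lower (Sema5b), against 6.98% of all genes. Sema5b was low in both, at 0.322 to 1.26 CPM in P23 controls and 0 in all P26 controls. The control groups did not overlap for 6 members higher at P26, Plxnb2, Plxnc1, Sema3b, Sema3d, Sema3e and Sema4g (background 6.51%), and for 1 lower, Sema5b (background 5.67%). Sema3b, whose values in each group are given with the activation results, had a log2 difference of 1.14 ± 0.45 (edgeR adjusted p = 0.678). The lower values of Nrp1 and Sema4b were -0.53 ± 0.45 and -0.47 ± 0.47 (edgeR adjusted p = 0.895 and 0.934). Plxnc1, a receptor of Sema7a, had 0, 0.0452, 0 and 0 CPM at 2 days and 3.05, 2.79, 0, 1.86 and 5.47 CPM at 5 days. It had 6.12, 5.97 and 0.807 CPM in P26 controls against 0.340, 0 and 0 CPM in P23 controls. For the difference between the 5-day and 2-day effects, 0 of 30 members had an unadjusted edgeR p below 0.05, against 5.72% of all genes.

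Among partners of the receptors, a list of 22 genes such as adhesion molecules, receptor kinases, VEGFs and their receptors, 21 were tested and 0 passed the adjusted edgeR threshold in any comparison. Positive log2 fold changes were found for 14 of 21 at 2 days and 8 of 21 at 5 days, with medians of 0.30 and -0.25. Over all tested genes 49.38% and 51.55% were positive. Met, a receptor kinase that associates with plexins B, stood at 11.54, 32.8, 33.8 and 19.4 CPM at 2 days against 77.8, 27.6 and 60.7 CPM in P23 controls, with a log2 fold change of -1.18 ± 0.49 (edgeR adjusted p = 0.919). At 5 days Met ran from 12.8 to 49.0 CPM against 18.5 to 40.7 CPM in P26 controls. Ptk7, a kinase-like co-receptor that also binds Wnt pathway proteins, had 74.0, 2.17, 20.6 and 18.3 CPM at 2 days against 6.90, 1.56 and 2.42 CPM in P23 controls (log2 fold change 2.99 ± 1.20, edgeR adjusted p = 0.919). Itga1, an integrin subunit, gave 1.99 ± 0.76 at 5 days (edgeR adjusted p = 0.696). Sdc3, a heparan sulphate proteoglycan, stood at 24.9, 229 and 128 CPM in P26 controls against 21.1, 23.1 and 30.5 CPM in P23 controls (log2 difference 2.36 ± 0.69, edgeR adjusted p = 0.551).

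Of 29 intracellular effectors 28 were tested and 0 passed the adjusted edgeR threshold in any comparison. Positive values were found for 16 of 28 at 2 days and 21 of 28 at 5 days (medians 0.23 and 0.30), against 49.38% and 51.55% of all tested genes. Dpysl3, a cytoskeletal protein of the collapsin response mediator family that acts downstream of Sema3a, had the smallest p of the list. It stood at 113, 96.4, 76.9, 71.1 and 193 CPM at 5 days against 20.7, 34.4 and 17.4 CPM in P26 controls, without overlap (background 3.39%). At 2 days it stood at 108, 34.5, 63.6 and 35.4 CPM against 31.7, 13.6 and 44.0 CPM in P23 controls, where the groups overlapped. The log2 fold change was 2.19 ± 0.50 at 5 days and 1.60 ± 0.35 averaged (edgeR adjusted p = 0.293 and 0.225). The highest Dpysl3 values of the activated groups lay in 2-day replicate 1 and 5-day replicate 5, libraries that stood apart. The part of stromal cells in the Dpysl3 values was not tested. Fer, a cytoplasmic tyrosine kinase, stood at 11.3, 10.5, 7.92 and 5.25 CPM at 2 days against 20.7, 17.99 and 25.9 CPM in P23 controls, and at 22.1, 21.8, 19.4, 22.1 and 32.01 CPM at 5 days against 8.34, 17.2 and 9.73 CPM in P26 controls. Fer lay below the controls in every 2-day library (background 2.91%) and above them in every 5-day library (background 3.39%). Fer and Dpysl3 were picked by small p, and the effectors without overlap were not counted. For Fer the 5-day effect exceeded the 2-day effect by 2.30 ± 0.60 on the log2 scale (edgeR adjusted p = 0.81).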

How the data were processed

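Counts per gene were used as the authors deposited them, 1 column per library. Builds mm10 and GRCm38, and the tools Trimmomatic 0.39, SAMtools 1.9, Cufflinks 2.2.1 and DESeq2 1.40.1, are named in the submitters' processing notes. How reads were aligned and counted, and whether by strand, is not given in the sources used here. Values of 1 or 2 were only 0.946% to 1.94% of the nonzero values per library, and a count may therefore not equal a molecule.

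Groups came from the sample titles. The authors' deposited sample sheet was read only for its group column, which served as an alternative. edgeR 4.0.16 (R 4.3.3) was run with filterByExpr by group (16935 genes kept, 18438 removed), TMM scaling and a robust quasi-likelihood fit of 4 groups to all 15 libraries. Two-sided p-values were adjusted over all tested genes (Benjamini-Hochberg) and called below 0.05. The SE is the log2 fold change divided by the square root of F. Each activated group was set against the controls of its age, the average and difference of these effects were taken, and P26 controls were set against P23 controls. Exact permutations used log2(CPM + 0.5) and 1960 arrangements within ages. DESeq2 1.42.0 and limma 3.58.1 (voom with quality weights) were alternatives, with other scalings and filters, a replicate block, each library left out, the sample sheet's group and a Y-linked covariate.

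The members, lists and tests were chosen with earlier results of these data known. Members with full values were those averaging 1 CPM or more with the 4 smallest p in each direction at 2 days, at 5 days and averaged, the 2 smallest for the difference and control ages, and 6 given always. No fold is printed where a group had a median of 0 CPM, as for Plxnc1. All 31 members had the same coordinates in the GENCODE M21 annotation (GRCm38), and exon lengths are the union of its exons. No pairing of libraries across groups by replicate number is stated, so the main fit has no block.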

Additional observations from a re-analysis of the deposited data

Results flagged for a closer look

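In groups of 4 or 5 libraries, 57 sets of values of the members were examined for a value far from the rest, and 8 were found. The rule is expected to mark about 1 in 20 groups of unrelated normal values by chance, and 7 of the 8 lay in 2 libraries. Plxna2 stood at 50.4 CPM in the library labelled 2-day Wnt replicate 1, a control by the sample sheet, and at 18.2 to 22.4 CPM in 2-day replicates 2 to 4. Plxnb1 stood there at 26.6 CPM against 0 to 4.41 CPM, and Sema5b at 6.76 CPM against 0 to 1.07 CPM. High values of Plxna2 and Plxnb1, 43.5 and 26.1 CPM, were also found in P26 control replicate 1. The rule was not applied to the control groups. The library labelled 2-day Wnt replicate 1 also held the largest sum of the 10 hair follicle markers, 4714 CPM against 0 to 74.1 CPM in 2-day replicates 2 to 4. The part of these markers was not tested.

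In 5-day replicate 5, Nrp2 stood at 143.3 CPM against 36.8 to 57.3 CPM in 5-day replicates 1 to 4. Sema3d stood at 33.5 CPM against 0 to 8.69 CPM, Sema6a at 34.1 CPM against 5.16 to 12.6 CPM, and Sema6d at 63.6 CPM against 9.31 to 21.5 CPM. Of the 30 tested members, 13 had their highest value of all 15 libraries there, and so had the stromal sum. The part of stromal cells was not tested. In 5-day replicate 2, Plxnb3 stood at 4.91 CPM against 0 to 1.36 CPM.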

How the results depend on the processing

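The count of members called by edgeR, 0 in each comparison, was the same under every other edgeR setting, including each library left out (0 to 0) and the replicate block (0 members called). DESeq2 called 2 members averaged over both ages, and weighted limma-voom called 1 between control ages. The cause was not tested. Over all genes DESeq2 called 104 higher and 45 lower at 2 days, 150 and 50 at 5 days, 240 and 81 averaged, 65 and 84 for the difference, and 217 and 69 between control ages. Weighted limma-voom called 34 and 192 at 5 days, 6 and 5 averaged, and 131 and 7 between control ages. The replicate block gave 5 and 0 between control ages. Same-numbered libraries correlated at -0.104 to 0.173. Without the 3 libraries that stood apart, left out after the data were seen, edgeR called 1 and 6 genes at 5 days and 8 and 0 between control ages.

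Signs turned for some values, none of them called, and the cause was not tested. Under the sample sheet's group, the 2-day log2 fold changes of Plxnb2, Sema3c and Nrp2 were -0.12, -0.46 and -0.11, averaged Sema3a was 0.27, and the Sema3d difference between ages was 0.20. With a Y-linked covariate, Nrp1 and Plxnd1 were -0.020 and 0.16 at 2 days, Plxna1, Plxnb2 and Sema3a were 0.17, 0.16 and -0.22 at 5 days, and Plxna1, Sema4a and Plxnd1 were 0.054, 0.41 and 0.66 averaged. Weighted limma-voom gave Plxna1 0.0025 and Nrp1 -0.019 at 2 days and Plxnd1 -0.25 at 5 days. The replicate block gave Nrp1 -0.16 at 2 days and averaged Plxnd1 0.27. A fit of only the 2 groups gave Nrp1 -9.794e-05, and the permutation difference of Sema4a was 0.046. Without the 3 libraries, Plxnd1 was -0.22 at 5 days and averaged Sema3a was 0.46. With each library left out in turn, 2-day Plxna1 ran from -0.75 to 0.15 and Nrp1 from -0.11 to 0.15. At 5 days Plxnb2 ran from -0.60 to 0.012 and Plxnd1 from -0.19 to 0.61. Averaged Sema4a ran from -0.30 to 0.16, Plxnd1 from -0.28 to 0.11 and Sema3a from -1.20 to 0.32. Sema4b between control ages ran from -0.69 to 0.053.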
